A study of Mus musculus with 8 samples.

Results

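The proximal tubule is the first stretch of the nephron after the glomerulus and recovers most of the sugar, phosphate, amino acids and protein that the glomerulus filters. The data below concern 10 of its reabsorption genes, chosen for their known roles and with earlier results of these data known. They are the endocytic receptor genes Lrp2 and Cubn, the protease gene Napsa, and the carrier genes Slc5a2, Slc5a12, Slc34a1, Slc34a3, Slc5a1, Slc3a1 and Slc7a13. All non-control probes that the array files assign to one of these names were taken, which gave 19 of 56605 probes and 10 of 37074 gene names. Lrp2 had 5 probes, 5 genes had 2 probes and 4 genes had 1 probe.

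The samples were male mouse kidney, liver and brain after 3 weeks on lead acetate in the drinking water at 1000 mg/L (high dose) or 100 mg/L (low dose), or on distilled water (control). Kidney and brain had 1 array for each of the 3 groups, and liver had 1 high-dose and 1 control array, so 8 arrays in all on 1 slide. The series asked how lead alters the expression of transporter genes in these tissues. Strain, age and the number of animals behind a sample are not given in the sources used here, and RNA came from small tissue pieces, per the labels' protocols. With 1 array a group, no dose difference has a replicate check and none has a p-value, and the number of arrays limits the precision of every value.

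A level below is the log2 of the processed scanner signal minus the 75th percentile of that array, and a difference is the log2 difference of 2 such levels of the same probe. The array error of a difference combines the spot errors that the scanner software reports and was 0.20 to 0.23 for the kidney differences of these probes and 0.20 to 0.34 for the reported probes measured in liver or brain. Spots of probes repeated within an array scattered by 0.048 to 0.063 (root mean square SD, log2), which leaves out variation between mice and tissue pieces. Each gene was summarised by whichever of its probes averaged highest over the 8 arrays, called the reported probe, and its other probes are given beside it. A difference was called when it was at least 1, or under a looser rule at least 0.5, and in both cases more than 3 times the array error, on a probe well above background on both arrays. Bright spots all carried nearly the same spot error, 0.144. Under the looser rule the error condition was therefore always the stricter one, and differences a little above 0.5 were not called.

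The proximal tubule has a convoluted part in the cortex and a straight part that runs down into the outer medulla. Bulk glucose uptake by a high-capacity carrier and most phosphate uptake take place in the convoluted part. A high-affinity glucose carrier of the straight part recovers the glucose that is left. In mouse, Slc5a2, Slc5a12, Slc34a1 and Slc34a3 are known mainly from the convoluted part and Slc5a1, Slc3a1 and Slc7a13 mainly from the straight part. Lrp2 and Cubn act along the whole tubule, and Napsa was not assigned to a segment. In such bulk samples fewer tubule cells and less RNA per cell cannot be told apart.

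The 2 probes of Napsa are printed because this gene had the largest lead difference of the 10, and the second probe of Slc34a3 because that gene stood highest above the control; they are 60 bases long, 5′ to 3′, with positions from the array files in mm9.
Napsa, reported probe, chr7:51837726-51837785, plus strand: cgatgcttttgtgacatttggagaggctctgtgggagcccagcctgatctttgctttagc
Napsa, second probe, chr7:51840710-51841119, plus strand: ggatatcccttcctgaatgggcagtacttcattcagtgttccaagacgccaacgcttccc
Slc34a3, second probe, chr2:25086307-25086366, minus strand: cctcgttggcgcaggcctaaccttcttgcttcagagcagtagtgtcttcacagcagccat
The second Napsa probe covers 410 bases of genome with its 60 bases, so its match is split over a gap, whereas the other 2 match 60 bases without one. All 3 are listed in the files against RefSeq transcripts of their gene.

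Promoter windows of 300 bases around the transcript start were found in a RefSeq-derived table (GRCm38.p6) for 6 of the 10 genes. Those of the phosphate carriers Slc34a1 and Slc34a3 are shown because these paralogs went to opposite sides of the control at the high dose, and that of Slc3a1 because it held the motif searched. Capitals mark CAAAGTCCA, a core of sites of the HNF4 factors, searched on both strands (TGGACTTTG on the other).
Slc34a1, chr13:55399398-55399697, plus strand: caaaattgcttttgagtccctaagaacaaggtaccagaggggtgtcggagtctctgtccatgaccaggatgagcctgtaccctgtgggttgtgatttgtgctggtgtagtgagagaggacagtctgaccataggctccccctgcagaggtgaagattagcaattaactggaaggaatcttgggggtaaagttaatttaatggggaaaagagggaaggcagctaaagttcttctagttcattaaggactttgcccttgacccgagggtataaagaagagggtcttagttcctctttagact
Slc34a3, chr2:25234185-25234484, minus strand: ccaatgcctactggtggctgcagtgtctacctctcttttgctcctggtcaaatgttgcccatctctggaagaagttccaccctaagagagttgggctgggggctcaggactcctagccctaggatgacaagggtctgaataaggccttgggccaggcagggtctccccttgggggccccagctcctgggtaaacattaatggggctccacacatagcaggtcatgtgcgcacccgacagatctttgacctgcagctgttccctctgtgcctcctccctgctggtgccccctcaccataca
Slc3a1, chr17:85028097-85028396, plus strand: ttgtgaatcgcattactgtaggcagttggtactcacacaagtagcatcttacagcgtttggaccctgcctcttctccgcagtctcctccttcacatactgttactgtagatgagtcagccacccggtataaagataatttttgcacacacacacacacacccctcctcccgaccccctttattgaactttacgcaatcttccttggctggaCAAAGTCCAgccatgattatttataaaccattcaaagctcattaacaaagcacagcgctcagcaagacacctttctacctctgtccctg
CAAAGTCCA occurred in 1 of the 6 windows, that of Slc3a1, and in 0.475% of 32851 windows of the table. The motif was chosen with the sequences at hand, and a match describes the letters only.

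Tissue labels held up on marker sets. Thick limb genes had median levels of 4.40 to 4.70 on the kidney arrays and at most -5.90 elsewhere, hepatocyte genes 8.56 and 8.73 on the high-dose and control liver arrays, and neuron genes 5.06 to 5.10 on the brain arrays. Other marker sets differed between the kidney arrays. In the order control, low and high dose, the median level was -1.12, -4.56 and -4.24 for 9 adrenal genes, -0.28, -1.24 and -1.12 for 7 fat genes, -3.41, -2.05 and -2.03 for 6 genes of the urinary tract lining, and -2.82, -4.18 and 0.50 for 6 sperm genes. The 8 hepatocyte genes stood at -3.43, -3.64 and -2.50 and 10 tubule injury genes at -1.11, -1.43 and -0.06. On the brain arrays the 6 sperm genes differed too, at -4.25, -4.91 and -0.58 in the same order. The part of these differences in the values below was not tested.

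Every probe of the 10 genes had its highest levels in kidney. All 19 probes were well above background on all 3 kidney arrays, and 11 of them on no liver or brain array. Tissues were compared in a limma fit over the 8 arrays with tissue and dose as factors. Probes dim in liver and brain entered this fit only through kidney, so that their being higher there was set by the filter, and the test is given only for reported probes measured in both tissues of a comparison. Against brain these were Lrp2, Cubn, Slc34a1, Slc34a3 and Slc3a1, with log2 differences of 4.42 (Lrp2) to 9.31 (Slc34a1) and adjusted p of at most 4.30e-07. Against liver they were Lrp2, Slc34a1 and Slc3a1, with log2 differences of 2.72 (Slc3a1) to 8.43 (Slc34a1) and adjusted p of at most 5.26e-06. Of all 37861 probes fitted, 42.2% were called higher in kidney than in brain and 27.3% higher in kidney than in liver. The fit takes arrays of different dose as repeats of a tissue, and since nothing in the labels says that they came from separate mice, its p-values measure the spread between these samples only.

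**Figure D1:**
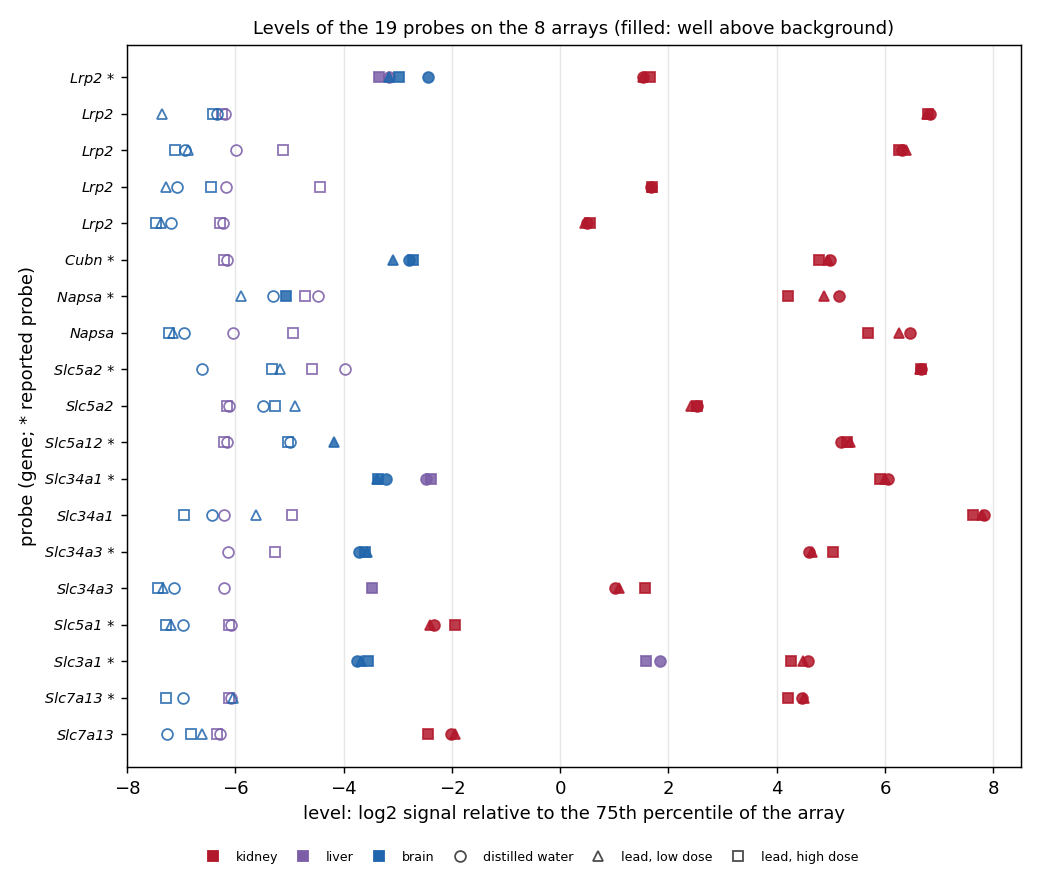
Level of each probe (rows, with the gene name; * marks the reported probe) on the 8 arrays, as log2 signal relative to the 75th percentile of the array. Colours give the tissue, shapes the dose and filled symbols a probe well above background. Every probe's 3 kidney values lie to the right of its liver and brain values, and both Napsa probes and the second Slc34a3 probe spread most between the kidney arrays.

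The size of the tissue gap could be bounded only from below where the other tissue gave no signal well above background. For such probes the kidney mean was set, on each dim array, against that probe's value or, if greater, the faintest signal still well above background. The brightest probe of Slc34a1, the main phosphate carrier NaPi-IIa, was at least 7311-fold higher in kidney than in brain and at least 3418-fold higher than in liver. The reported Slc34a1 probe, which was measured in all 3 tissues, gave smaller gaps, log2 differences of 9.31 (SE 0.075) against brain and 8.43 (SE 0.088) against liver, so the probes of this gene disagree on the size. The Lrp2 probes disagree as well. Its reported probe gave log2 differences of 4.42 against brain and 4.90 against liver. The other Lrp2 probes, at background in both, gave lower bounds of 47.9-fold to 3789-fold against brain and 22.4-fold to 1771-fold against liver. The reported probe of Slc5a2, the glucose carrier SGLT2, was at least 3438-fold higher than in brain and at least 1607-fold higher than in liver. The smallest bounds belonged to Slc5a1, at least 7.27-fold against brain and at least 3.40-fold against liver, whose kidney level was itself low.

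Slc3a1 was the exception in liver. It encodes rBAT, the heavy subunit of a carrier for cystine and dibasic amino acids, and its probe was well above background on all 8 arrays. It averaged 4.45 ± 0.17 in kidney (SD, n = 3) and 1.72 ± 0.17 in liver (SD, n = 2), a fitted difference of 2.72 (SE 0.13, limma adjusted p 5.26e-06). In brain it averaged -3.66 ± 0.11 (SD, n = 3). At 1000 mg/L its liver level was 1.59, against 1.84 in the control liver, a difference of -0.25 that was not called.

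Protein uptake was examined first. Lrp2 encodes megalin, the large receptor that takes filtered proteins into the tubule cell. Its brightest probe stood at 6.83, 6.78 and 6.79 in the control, low-dose and high-dose kidney, so the 3 arrays nearly coincided. The reported probe, listed in the files only against an Ensembl transcript, had levels of 1.52, 1.52 and 1.65. The 5 Lrp2 probes gave high-dose differences between -0.077 and 0.13, all smaller than the array error.

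Cubn encodes cubilin, megalin's partner, which binds albumin and vitamin carriers. Its level was 4.98, 4.94 and 4.77 in the control, low-dose and high-dose kidney. The high-dose array was the lowest, with a difference of -0.22 from the control (array error 0.20). Neither receptor passed the looser rule at either dose.

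Napsa encodes napsin A, an aspartic protease of the kidney and lung, and it was the member with the largest lead difference. The reported probe stood at 5.15, 4.88 and 4.21 in the control, low-dose and high-dose kidney, from scanner signals of 25828, 21820 and 14487. The second probe stood at 6.46, 6.26 and 5.68 on the same arrays. On both probes the order was control, then low dose, then high dose.

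The high-dose difference of Napsa was -0.93 on the reported probe and -0.78 on the second (array error 0.20), past the looser rule on both and short of a 2-fold change. The low-dose difference was -0.27 and -0.20, which was not called. Between the high and the low dose it was -0.66 and -0.58, past the looser rule on the reported probe only, since the second fell just short of 3 array errors. Of the 10 genes, 1 was lower and 0 higher under the looser rule at the high dose, beside 1.29% lower and 2.11% higher of 21232 measured genes. Only 0.674% of measured genes had a difference as low as that of Napsa. Under the 2-fold rule 0 of 10 genes were called, beside 1.66% of all genes, 1.12% higher and 0.542% lower.

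At the low dose 0 of 10 genes passed either rule, beside 0.49% of 20827 measured genes under the 2-fold rule and 1.02% under the looser one. Between the high and the low dose, Napsa was the 1 gene past the looser rule, in the downward direction, beside 0.597% of 20778 genes, and 0 of 10 passed the 2-fold rule, beside 1.07%. The median difference of the 10 genes was -0.084 for high dose against control and -0.030 for low dose against control, set beside -0.027 and -0.0071 for all measured genes.

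**Figure D2:**
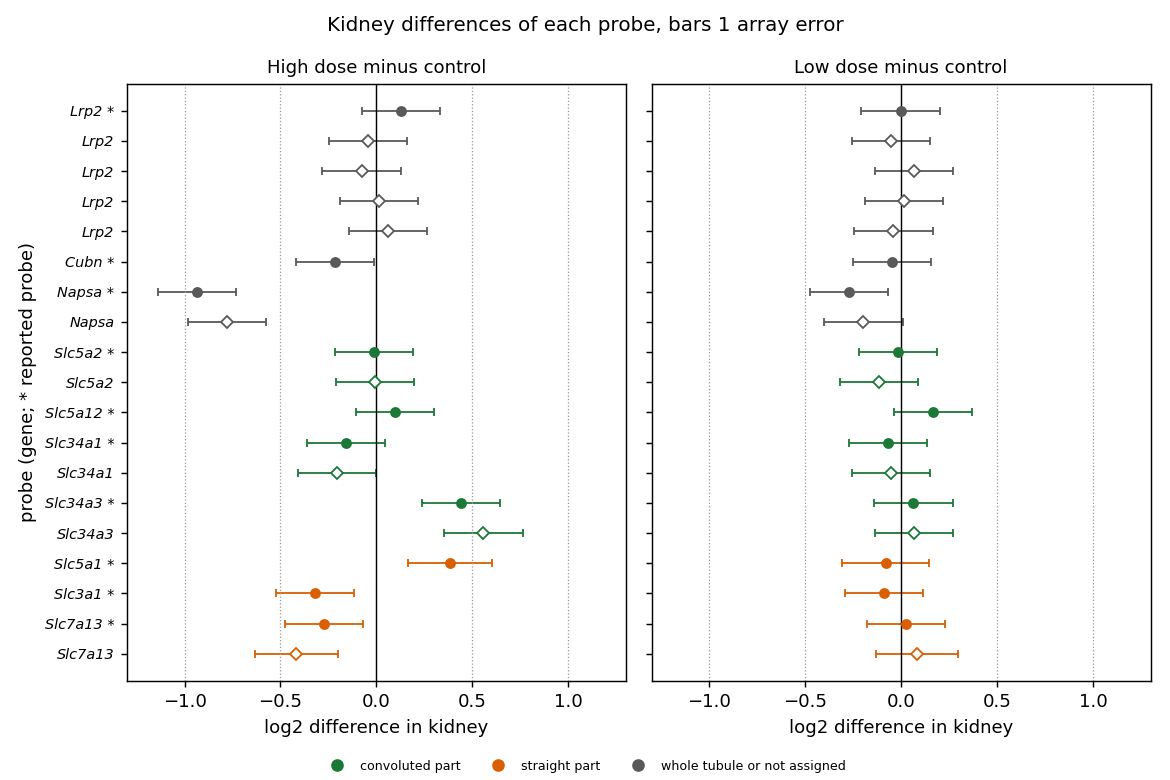
Log2 difference of each probe in kidney, high dose minus control on the left and low dose minus control on the right, with bars of 1 array error; colours give the tubule segment, dotted lines mark 0.5 and 1, and filled symbols are reported probes. Both Napsa probes lie at -0.93 and -0.78 at the high dose, and both Slc34a3 probes at 0.44 and 0.56 on the other side of 0.

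Sugar and monocarboxylate carriers of the convoluted part showed little difference. Slc5a2 encodes SGLT2, the sodium-glucose carrier that recovers most filtered glucose. Its reported probe stood at 6.67, 6.65 and 6.66 in the control, low-dose and high-dose kidney, the smallest spread among the 10 reported probes. The second probe stood at 2.53, 2.41 and 2.52. Slc5a12, a sodium carrier of lactate and related acids, stood at 5.19, 5.36 and 5.29. Its low-dose difference of 0.17 and high-dose difference of 0.096 were smaller than the array error.

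The phosphate carriers went to opposite sides of the control at the high dose. Slc34a1 stood at 6.06, 5.99 and 5.90 on those 3 arrays in the order of dose, and its second probe at 7.83, 7.78 and 7.63. Its high-dose difference was -0.16 on the reported and -0.20 on the second probe, no larger than the array error.

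Slc34a3 encodes NaPi-IIc, a sodium-phosphate carrier of the same family that is found in the kidney. Its reported probe stood at 4.59, 4.65 and 5.03 in the control, low-dose and high-dose kidney, and its second probe, printed above, at 1.01, 1.08 and 1.57. The control and low-dose arrays were close together and the high-dose array stood above both. The high-dose difference was 0.44 and 0.56 on the 2 probes (array error 0.20), which is 2 to 3 array errors and was not called. A difference of that size or larger upward was seen in 5.29% of measured genes.

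Among carriers of the straight part, Slc5a1 stood above the control at the high dose, and both amino acid genes below it. Slc5a1 encodes SGLT1, the high-affinity glucose carrier. Its level was -2.33, -2.41 and -1.95 in the control, low-dose and high-dose kidney, from signals of 145, 140 and 203. The high-dose difference of 0.38 (array error 0.22) was not called.

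Slc3a1 stood at 4.58, 4.49 and 4.26 in the control, low-dose and high-dose kidney, with a high-dose difference of -0.32 (array error 0.20). Slc7a13, which encodes AGT1, a carrier of acidic amino acids and cystine that pairs with rBAT in the mouse straight part, stood at 4.47, 4.50 and 4.20. Its second probe stood at -2.02, -1.94 and -2.44. The high-dose difference was -0.27 and -0.42 on the 2 probes, so the high-dose array was the lowest on every probe of this carrier pair, by less than the looser rule asks.

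Where a gene had several probes, their high-dose differences lay within 0.0025 to 0.21 of each other over the 6 genes concerned. At the low dose these ranges were 0.0022 to 0.12. At each dose the probes of a gene gave the same sign for Napsa, Slc34a3, Slc34a1, Slc7a13 and Slc5a2, and differed in sign for Lrp2.

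**Figure D3:**
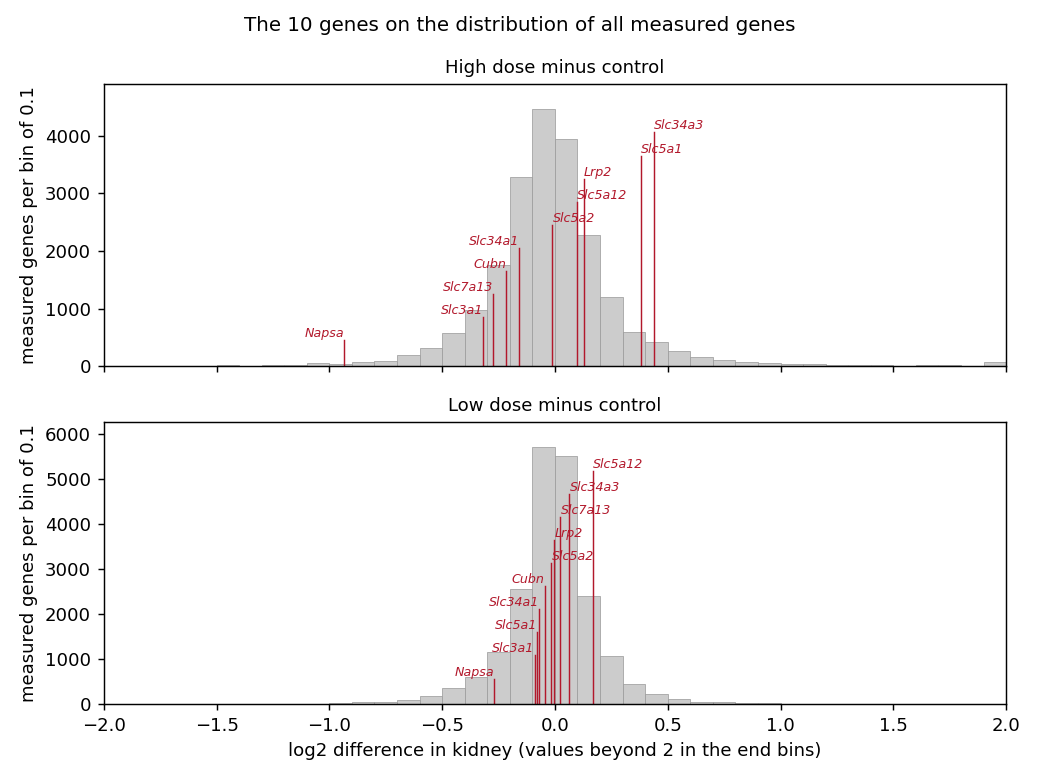
Number of measured genes per 0.1 of log2 difference in kidney (grey bars) for high dose minus control (top) and low dose minus control (bottom), with the reported probe of each of the 10 genes as a red line whose height only separates the names. At the high dose Napsa lies in the lower tail at -0.93, and at the low dose all 10 lie between -0.27 and 0.17.

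Set against each other, the segments differed little. The mean level of the 4 convoluted-part genes was 0.092 higher at the high dose than in the control (error 0.10), and that of the 3 straight-part genes was -0.070 from it (error 0.12). The difference between these shifts, convoluted minus straight, was 0.16 (error 0.16), and 0.085 at the low dose (error 0.16). These errors combine the scanner's spot errors only, taken as independent, and leave out the spread between genes and between mice. At the high dose the SD between the genes was 0.25 in the convoluted and 0.39 in the straight part. With genes under the 75th percentile left out, which removes Slc5a1, the high-dose value was 0.39. Within each segment the values differed in sign, as between Slc34a3 and Slc34a1 and between Slc5a1 and Slc3a1.

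Other genes known from the same segments gave a wider contrast. These lists were drawn up with earlier results of these data known, so their counts describe the lists and are no independent check. The 8 further convoluted-part genes include the neutral amino acid carrier Slc6a19 and the organic anion carrier Slc22a6. Their reported probes had high-dose differences between -0.11 and 0.13 (median 0.021), and 0 of 8 passed the looser rule. Other probes of Slc9a3 (0.44) and Slc4a4 (0.18) lay outside this range. The 10 further straight-part genes had a median of -0.33, with 8 of 10 below 0. Among all 21232 measured genes the median was -0.027, and 11892 were below 0. Under the 2-fold rule 2 of these 10 were lower, beside 0.542% of all genes. Under the looser rule 1 of them, Slc7a12 at 0.63, was higher, beside 2.11% of all genes. Other kidney cell markers had median high-dose differences of 0.30 for thick limb (5 of 5 above 0) and 0.31 for fibroblast genes (5 of 5). Macrophage genes stood at 0.46 (4 of 6) and genes of the medulla at 0.28 (4 of 6). The medians were smaller for intercalated (0.15), collecting duct (0.11), distal (-0.017), endothelium (-0.055) and podocyte genes (-0.11). Above 0 were 9340 of all 21232 measured genes, and 0 thick limb or fibroblast genes passed the looser rule. At the low dose the fibroblast median was 0.28 and that of the medulla 0.23. The part of these markers in the straight-part values was not tested.

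The 2 straight-part genes lower under the 2-fold rule were the organic anion carriers Slc22a7 and Slc22a19. Slc22a7 stood at 4.38, 3.91 and 2.52 in the control, low-dose and high-dose kidney, a high-dose difference of -1.86. Slc22a19 stood at -0.02, -0.25 and -1.37, a difference of -1.35. Both were also past the 2-fold rule between the high and the low dose (-1.38 and -1.11), beside 0.241% of all genes lower. Their levels fell in the order control, low dose, high dose, as did those of Napsa and, among others, Cubn, Slc3a1 and Slc34a1. None of these genes was called at the low dose. How many of all genes ran in this order was not counted.

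The amino acid carrier Slc7a12 did not follow that order, with -0.14, -0.97 and 0.49. It was 1.46 higher at the high than at the low dose, past the 2-fold rule, beside 0.833% of all genes higher. The peptide carrier Slc15a2 differed by -0.58 at the high dose, but 5 other probes of it gave between -0.64 and 1.56. Cyp7b1, a steroid hydroxylase, differed by -0.57 and its second probe by -0.67. Atp11a of the same list differed by -0.17 on its reported probe and by -0.47, -0.43 and -0.42 on others.

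**Figure D4:**
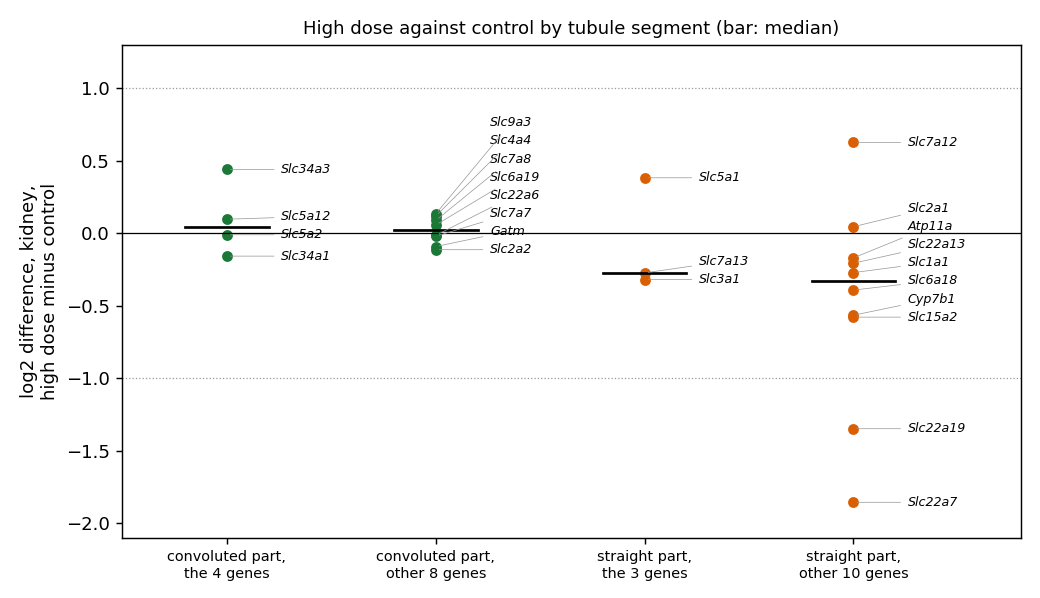
Log2 difference in kidney, high dose minus control, for genes of the convoluted part (green) and the straight part (orange); points are reported probes, black bars medians and dotted lines the 2-fold rule. Convoluted-part genes lie near 0 apart from Slc34a3, while Slc22a7 and Slc22a19 of the straight part lie below -1.

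Partners of the 10 genes were read against the looser rule at the high dose, which 2.11% of all genes passed upward and 1.29% downward, so that counts of 0 or 1 in lists of this size are near that background. Of 11 endocytosis genes, including Amn, which anchors cubilin (0.048 at the high dose), and the adaptor gene Dab2 (0.028, and between -0.34 and -0.02 on 3 other probes), 0 passed the looser rule, and their median high-dose difference was 0.048. The largest differences were those of Rab38, a vesicle GTPase (-0.41), and the lysosomal protease Ctsl (0.26).

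Of 9 genes of phosphate handling, 1 passed the looser rule. Slc20a1, a phosphate carrier found in most cells, stood at 0.78, 0.77 and 1.46 in the control, low-dose and high-dose kidney, a difference of 0.68. Pth1r, the parathyroid hormone receptor, which controls phosphate carriers in the tubule, stood at 5.43, 5.34 and 5.10, a difference of -0.33. The median of these 9 genes was -0.050.

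Of 8 sugar and monocarboxylate genes 0 passed the looser rule, with Slc5a8, a lactate carrier, at -0.43 and the mannose carrier Slc5a9 at 0.41 (second probe 0.17). Slc5a11 of this list differed by 0.13 on its reported probe and 0.62 on its other probe. Of 16 amino acid and peptide genes 0 passed it. Slc7a9, the light subunit that pairs with rBAT, differed by 0.080, and the glutamine carrier Slc38a3 by 0.53. Slc6a20a of the same list differed by 0.51 on its reported probe and 0.74 on its other probe. Of 11 sodium, bicarbonate and anion genes 0 passed it, with the anion exchanger Slc26a6 at 0.52 (other probes 0.51 and 0.86) and the dicarboxylate carrier Slc13a3 at 0.26. The counts in this paragraph rest on reported probes only.

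Over the 7 lists together, 63 of 63 distinct genes were measured, 2 were higher (Slc20a1 and Slc7a12) and 2 lower (Slc22a7 and Slc22a19) under the looser rule at the high dose, beside 2.11% and 1.29% of all genes. At the low dose 0 were higher and 1 was lower, Slc7a12 at -0.83, beside 0.495% and 0.523% of all genes. Some genes stand in 2 lists.

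In liver and brain few of the 10 genes could be compared between doses. In liver, 3 reported probes were measured on both arrays, with high-dose differences of -0.17 for Lrp2, 0.10 for Slc34a1 and -0.25 for Slc3a1, and 0 of 3 passed the looser rule, beside 2.07% of 19062 genes. In brain, 5 reported probes were measured.

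The 1 brain value past the looser rule was that of Lrp2 at the low dose. Its reported probe stood at -2.45, -3.16 and -2.97 in the control, low-dose and high-dose brain, a low-dose difference of -0.71 beside 0.714% of 22539 genes lower under that rule. The high-dose difference of -0.52 was not called, beside 0.543% of 22643 genes. The other 4 Lrp2 probes were well above background on 0 of 3 brain arrays, so this value rests on the probe with an Ensembl transcript alone.

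The profiles most like those of the segments across the 8 arrays were sought by Pearson correlation among 20615 other genes well above background on all 3 kidney arrays. For the mean of the 4 convoluted-part genes they were Snhg18, Apobec2 and 4833439L19Rik (r 0.9996, 0.9993 and 0.9992), and for the 3 straight-part genes a clone without a gene symbol, Tmem174 and Krt7 (r of Tmem174 0.9995 and of Krt7 0.9994). In all, 255 and 382 genes reached a correlation of 0.99, and the 8 points share the wide gap between kidney and the other tissues.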

How the data were processed

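Total RNA was labelled with Cy3 and hybridised to 1-colour Agilent arrays, 1 per group, per the labels' protocols. The deposited scanner files hold spot intensity from Agilent Feature Extraction 12.0.3.1, after background subtraction and spatial detrending, with no scaling across arrays, per the file headers. Of their other columns, the error of the processed intensity and the software's spot flags were used, per the file headers. The authors' value table gives intensity as well and equals the processed intensity divided by 1 constant per array; its column medians were 0.0940, 0.0905 and 0.0936 for kidney (control, low, high), 0.0918 and 0.0915 for liver (high, control) and 0.112, 0.113 and 0.114 for brain (control, low, high).

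Control spots and 60 to 107 outlier spots per array were left out, and spots of a probe were averaged as log2 values. The 75th percentile of the signal was 729 to 782 on kidney, 427 to 435 on liver and 919 to 954 on brain arrays, and 53.4% to 67.1% of spots were well above background. None of the 19 probes was saturated. Gene names are those of the array files. Tissues were compared with limma 3.58.1 in R 4.3.3 (tissue plus dose, intensity trend, Benjamini-Hochberg over probes well above background on every array of at least 1 tissue), tested on simulated data. Python 3.11.15 was used for the rest. The members, the lists and the tests were chosen with earlier results of these data known. Named list genes are those past the 2-fold rule in a kidney comparison and the 2 largest differences per list at the high dose, and others were named after their values were seen. Alternatives changed the scaling, background correction, probe choice, source, dim-probe filter, model terms and arrays. A list of transcription factor genes is not reported here.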

Additional observations from a re-analysis of the deposited data

How the results depend on the processing

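Of 809 values recomputed under alternatives, 786 kept their call, moved by less than their error or, for counts, stayed within 1.5 times. The sign changed in 13, in 11 of them by less than the error, and in the liver and brain medians given below. Many of the 809 could not move, such as a gene with 1 probe under another probe choice, or a kidney-brain difference without a liver array. They also include 338 tissue differences of single genes, for some of which the filter set the direction. The share that held is therefore no measure of how robust the results are. All 237 recomputed kidney differences of single genes moved by less than the array error, with Napsa between -0.94 and -0.78 at the high dose. No paired analysis was possible because each group held 1 array; this concerns the dose comparisons, while the tissue fit has dose as a factor and called 29964 (brain) and 24990 (liver) probes with it, against 30353 and 26296 with tissue alone. Counts over all genes moved most. Under the 2-fold rule, 352 genes at the high dose, 102 at the low dose and 223 between the doses became 151, 19 and 110 with normexp background correction, 540, 208 and 391 without a filter on dim probes, and 60, 1 and 40 with a stricter filter, which leaves fewer genes. Under the looser rule, 721, 212 and 433 became 383, 65 and 242 with normexp and 140, 11 and 100 with the stricter filter. The stricter filter, which drops Slc5a1, put the gain of the convoluted on the straight part at 0.39 against 0.16 for high dose against control, and at 0.32 against 0.077 for high against low dose. Taking each gene's brightest kidney probe, an alternative chosen after seeing the data, left 0 of 10 genes, not 1, past the looser rule between the doses, and put the members' brain median at the low dose at 0.078 against -0.16. With the mean of probes, the liver median was 0.46 against -0.17. This setting was planned for kidney and applied to liver after seeing the data. In liver it averages in Lrp2 and Slc34a1 probes that were not well above background there. Probes called between kidney and brain numbered 29964, against 19375 with the mean of probes and 14891 with the stricter filter, and 27651 to 30381 without 1 array. Between kidney and liver they numbered 24990, against 13157 with the stricter filter and 21090 to 23930 without 1 array. For Slc5a1, with kidney signals of 140 to 203, normexp put the high-dose difference at 0.27 against 0.38. Most liver and brain values of these genes lie at background.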

Other observations

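Of 10 tubule injury genes 8 were measured in kidney, and 8 of 8 stood above the control at the high dose, beside 9340 of 21232 measured genes. The 2-fold rule was passed upward by 3 of them, beside 1.12% of all genes. Their median difference was 0.68 for high dose against control and 0.017 for low dose against control.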
